A study of Populus tremula x Populus alba with 7 samples.

Results

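PtrARF5a and PtrBLH shared 222 chromosomal regions of the poplar genome in which no peak of PtrC2H2ZF1, PtrC2H2ZF2, PtrNAC127 or PtrCORONA was called. The peaks of the 6 ChIP-seq lists had been merged wherever they overlapped by at least 1 bp, which gave 5498 regions in all and 5369 on the chromosomes, so the regions described here were 4.13% of the chromosomal ones. They were chosen by the peak calls of all 6 libraries, and the strength of a peak is therefore part of the choice and is given as a description, with no test. Each of the 19 chromosomes held at least 2 of the regions.

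Each library came from leaves of the hybrid Populus tremula × alba. A single transcription factor (TF) fused to GFP was driven by the constitutive CaMV35S promoter after infiltration with Agrobacterium, and DNA fixed to it (1% formaldehyde, 15 min) was recovered with a GFP antibody. The TFs were introduced one per library as PtrC2H2ZF1, PtrC2H2ZF2, PtrARF5a, PtrBLH, PtrNAC127 or PtrCORONA, and input chromatin without antibody served as the control for every list. No TF had a replicate library, so no error between replicates can be given, and a difference between lists cannot be told apart from one between libraries. The fusion proteins were overexpressed transiently, beside any native protein of the leaf.

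Auxin response factors bind DNA elements in the promoters of auxin-regulated genes and are held inactive by Aux/IAA proteins until auxin triggers the breakdown of these repressors. Arabidopsis ARF5, also called MONOPTEROS, is known for its role in the formation of vascular tissue. BLH proteins are BEL1-like homeodomain TFs, which bind DNA mostly as pairs with KNOX homeodomain proteins and act in meristems and stems. CORONA of Arabidopsis, whose poplar namesake is among the 6 TFs, belongs to the class III HD-ZIP proteins, another homeodomain group with roles in vascular development.

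The regions took up a much larger part of the PtrBLH list than of the PtrARF5a list. Since 218 of the 222 regions held 1 peak of each TF, this gap follows from the lengths of the lists. They held 222 of the 979 chromosomal PtrBLH peaks (22.7%, exact 95% binomial interval 20.1 to 25.4%, counting error only) and 226 of the 5268 chromosomal PtrARF5a peaks (4.29%, 3.76 to 4.87%). Of the 914 chromosomal regions with peaks of both TFs, 24.3% had no further TF, 176 had PtrCORONA as the only further TF, and 476 had all 6. The PtrC2H2ZF1 list alone was added at 1 such region, and the PtrC2H2ZF2 and PtrNAC127 lists alone at 0. With PtrCORONA left out of the rule, the 222 regions became 398, and with only peaks of a −log10 q of at least 5 or at least 10 kept in every list they became 147 or 54.

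The depth of the libraries can be read from the lists, since the caller computes fold enrichment and p from the same pile-up (the number of extended reads over the summit) and the same background from the input. Solved for both, all 5397 PtrARF5a peaks and all 1023 PtrBLH peaks gave whole pile-ups. The background moved in steps that put the depth at 0.879 of the input reads for PtrARF5a and 0.527 for PtrBLH, a ratio of 1.67. Among the other lists the depth was 0.233 (PtrC2H2ZF1), 0.210 (PtrC2H2ZF2), 0.781 (PtrCORONA) and 1.07 (PtrNAC127) of the input.

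The PtrBLH peaks of the regions were weak ones of their list. Their −log10 q ran from 2.08 to 16 with a median of 6, and their fold enrichment over the input from 1.75 to 10.8 with a median of 5.84. All 222 lay below the median −log10 q of the PtrBLH list, against 48.9% of all regions with both peaks, and 145 lay below its 25th percentile. The pile-up at the summit had a median of 11 reads over a background of 1.05 reads, and a count of 11 carries an exact 95% Poisson interval of 5.49 to 19.7 reads. In 90 regions the PtrBLH peak rested on 10 reads or fewer, and the lowest pile-up was 4.

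Such low counts gave the same fold enrichment again and again. A PtrBLH pile-up of 10 reads over a background of 1.055 reads stood behind the fold of 5.35 in 16 of the regions. Divided by the depth, this background equals 2 input reads per window. The 222 regions had 113 distinct PtrBLH folds. Even so, the lower limit of the Poisson interval lay above the background in all of them, for PtrBLH as for PtrARF5a, as any peak past the caller's p threshold would be.

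The PtrARF5a peaks at the same places ranked higher in their own list. Their −log10 q had a median of 12.2 (2.39 to 63.6) and their fold enrichment a median of 8.03 (1.43 to 30.1). Below the median of the PtrARF5a list lay 59 of them (26.6%), against 8.42% of all regions with both peaks, and 89 lay above its 75th percentile. The median pile-up was 16 reads (exact 95% Poisson interval of that count 9.15 to 26.0) over a background of 0.881 reads. In 212 of the 222 regions the PtrARF5a peak had the higher percentile of −log10 q within its own list, and in 10 the PtrBLH peak did. The median percentile was 70.8 for PtrARF5a and 17.8 for PtrBLH. Where PtrCORONA was the only further TF the medians were 86.1 and 33.5, and where every TF was called they were 94.8 and 73.9. The higher PtrARF5a percentile is therefore not particular to the regions described here. The PtrARF5a list is the longer of the pair, and its median −log10 q was 7.93, against 17.7 in the PtrBLH list. A percentile there is thus taken among many weak peaks, although both lists reach down to about the same −log10 q (2.02 and 2.08).

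**Figure D1:**
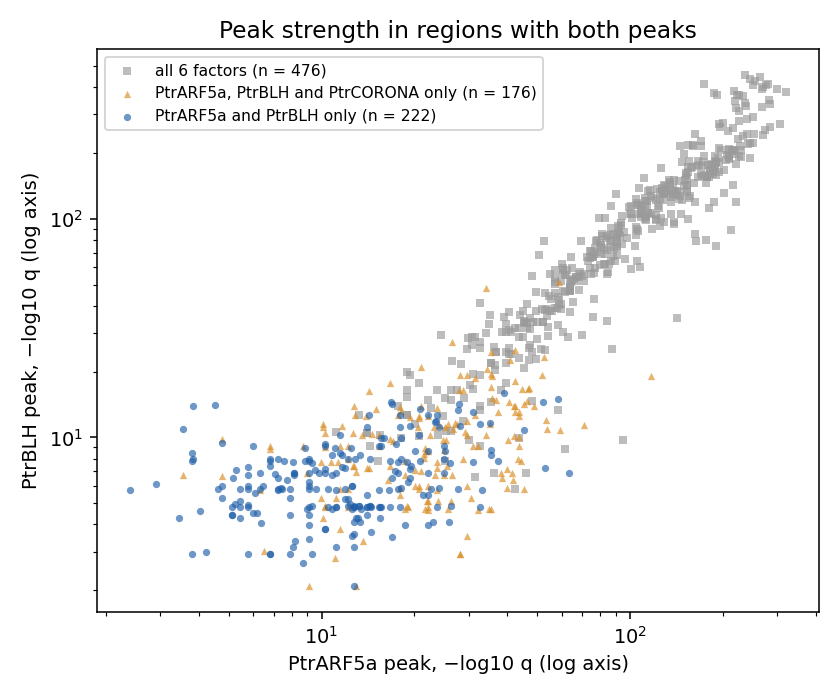
−log10 q of the PtrARF5a peak (x axis, log) against that of the PtrBLH peak (y axis, log), 1 point per chromosomal region, for the 222 regions of PtrARF5a and PtrBLH only, the 176 that also held PtrCORONA only, and the 476 of all 6 TFs. The 222 regions stay at or under 16 on the PtrBLH axis but spread from 2.39 to 63.6 on the PtrARF5a axis.

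The position of the regions along the PtrBLH list was thus narrow and along the PtrARF5a list wide. Sorted by −log10 q, the lowest quintile of the regions with a PtrBLH peak held 120 of them, which is 61.2% of that quintile (exact 95% binomial interval 54.0 to 68.1%). The next quintiles held 40.7% and 11.8%, and the upper ones 0 of 192 and 0 of 194. Among the regions with a PtrARF5a peak the share went the other way, from 1.51% (0.866 to 2.44%) in the lowest quintile to 6.60% and 6.81% (5.35 to 8.51%) in the upper ones. However, PtrARF5a was the only TF in 1007 of the 1059 regions of the lowest quintile, against 245 of 1043 in the highest. Regions of all 6 TFs went from 0 to 469 between the same quintiles. Those of PtrARF5a and PtrCORONA only also rose, from 22 to 93 and 75 in the upper ones. The rise is therefore not particular to the regions described here. In the highest PtrBLH quintile 193 of the 194 regions were those of all 6 TFs.

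**Figure D2:**
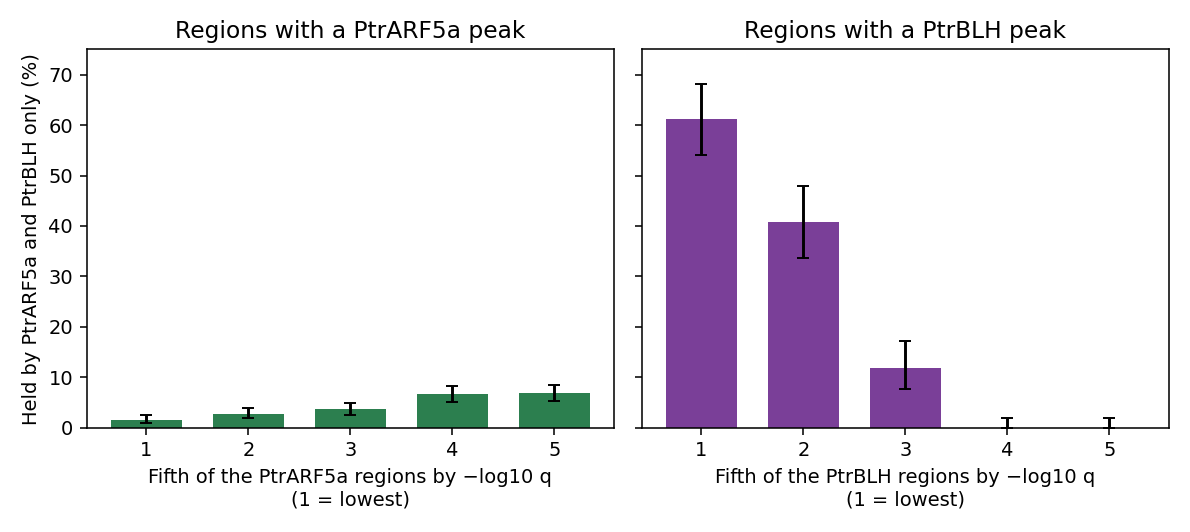
Share (%) of the regions with a PtrARF5a peak (left) and with a PtrBLH peak (right) that held these TFs only, by quintile of −log10 q in that list (1 is the lowest), with exact 95% binomial intervals as bars. The share falls from 61.2% to 0 along the PtrBLH list and goes from 1.51% to 6.81% along the PtrARF5a list. PtrARF5a is the only TF in 1007 of 1059 regions of its lowest quintile and in 245 of 1043 of its highest.

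By the mean of its ranks, the leading region was Chr12:2818637-2819059, with rank 2 of the 222 by −log10 q for either TF. Its PtrARF5a peak had a fold enrichment of 27.3 (−log10 q 58.5, pile-up 40) and its PtrBLH peak one of 10.6 (−log10 q 15.1, pile-up 15), with the summits 33 bp apart. The highest PtrBLH values belonged to Chr7:4585925-4586464, where the fold enrichment was 10.8 and the −log10 q 16. PtrARF5a reached a fold of 18.6 and a −log10 q of 38.9 there. Next by mean rank was Chr4:10365323-10365849 (rank 4 for either TF), with PtrARF5a at a fold of 25.9 and PtrBLH at 10.4. These 3 regions also had the highest PtrBLH fold enrichments, and the nearest peak of another TF was 32119, 110558 and 52060 bp away in the same order.

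The next regions by mean rank combined large or small pile-ups with high or low input. At Chr1:27807692-27808142 the pile-ups were large, 56 reads for PtrARF5a and 39 for PtrBLH. The folds there were 7.09 and 5.09, over backgrounds equal to 8 and 13 input reads per window. Chr7:15361410-15361789 had 49 PtrARF5a reads and a fold of 11.1 over a background equal to 4 input reads per window. By contrast, Chr3:1368483-1368828 reached folds of 16.2 and 9.82 from 20 and 14 reads, over backgrounds of 0.294 and 0.527 reads. The remaining ones of the leading 10 were Chr5:25811553-25811969 and the chromosome 10 regions starting at 10835742, 8626817 and 21385585, with PtrARF5a folds of 14.9 to 17.0 and PtrBLH folds of 7.36 to 8.43.

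By −log10 q and fold enrichment, strength in one list was only loosely related to strength in the other. The regions named next were picked as extremes. The largest PtrARF5a fold and −log10 q of the 222 regions (30.1 and 63.6) were found at Chr19:2535628-2536088. There PtrBLH had an ordinary fold of 6.33 and ranked 89th by −log10 q. Further apart still were Chr6:3864684-3864987, with a PtrARF5a −log10 q of 25.8 and a PtrBLH −log10 q of 4.09, and Chr13:16078722-16079005, with 22.2 and 3.99. In the opposite direction, Chr10:10933784-10934194 had a PtrBLH −log10 q of 13.9 (fold 9.25) and a PtrARF5a −log10 q of 3.82 (fold 4.35). At Chr2:14942742-14943121 the PtrBLH fold of 7.49 came from 7 reads and the PtrARF5a fold of 3.75 from 3 reads, the fewest of any PtrARF5a peak in the regions.

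Across the 222 regions, Spearman's rho between the lists was 0.298 for −log10 q, 0.346 for fold enrichment and 0.671 for the pile-up. The background from the input had a rho of 0.805, and both lists were called against 1 input. The regions also share their genome, mapping and base composition, and they are not replicates. Where PtrCORONA was the only further TF, rho for −log10 q was 0.410. In the regions of all 6 TFs it was 0.956, over a far wider range of values.

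One region stood apart by its input. At Chr13:14861662-14861945 the background equalled 187 input reads per window for PtrARF5a and 298 for PtrBLH, against medians of 1.00 and 2 over the 222 regions. The pile-ups of 236 and 275 reads were the highest of the regions, and the fold enrichments of 1.43 and 1.75 were the lowest. A PtrC2H2ZF1 peak lay 1477 bp away. PtrBLH peaks without any other TF, also with large pile-ups and low folds, were called close by. Examples were Chr13:14862312-14862700 (267 reads, fold 2.18) and Chr13:14865200-14865495 (286 reads, fold 1.54). Only 2 regions for PtrARF5a and 3 for PtrBLH had a background of more than 10 input reads per window.

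**Figure D3:**
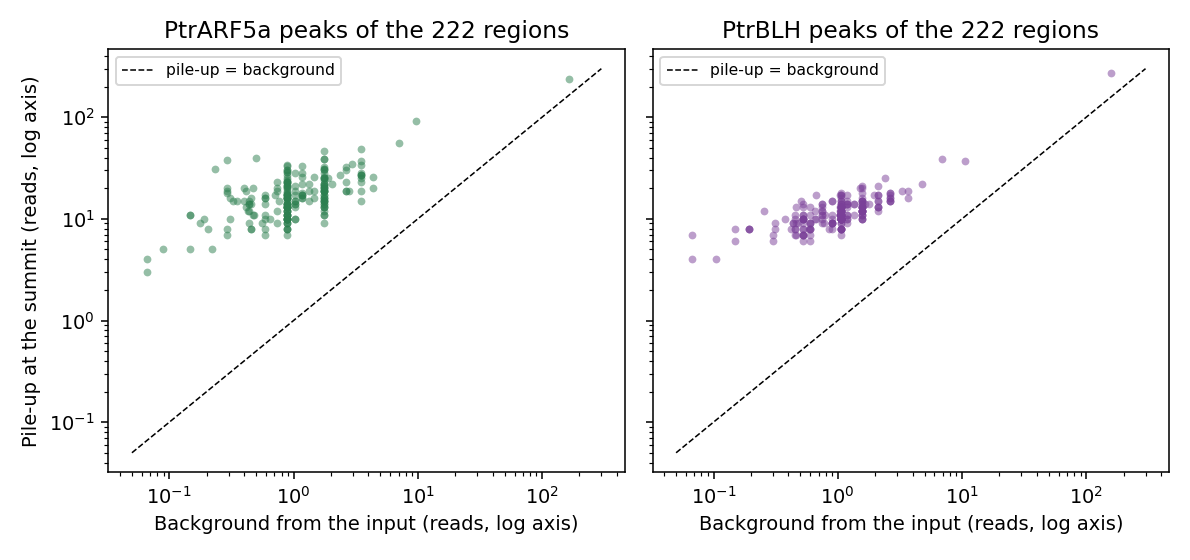
Pile-up at the summit (y axis, reads, log) against the background from the input (x axis, reads, log) for the PtrARF5a peaks (left) and the PtrBLH peaks (right) of the 222 regions, with the line of equal values dashed. Many points stand in columns at whole numbers of input reads, and the point at the far right of each panel is the region on chromosome 13 with pile-ups of 236 and 275 reads.

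The summits of both TFs lay close together, with PtrBLH about as often on either side. Their median distance was 47 bp (lowest 0, highest 411 bp), and 124 of the 222 regions (55.9%) had them within 50 bp, against 74.9% of all 914 regions with both peaks. Within 100 bp were 77.9% of them. The PtrBLH summit had the higher coordinate in 112 regions and the lower in 109, and in 1 region both fell on the same base. In 197 regions each summit lay inside the peak of the other TF.

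Summits were closest in the regions of all 6 TFs. The median distance was 41.5 bp where PtrCORONA was also called (60.2% within 50 bp) and 11 bp in the regions of all 6 TFs (89.9%). Pile-ups differed along with it, since the regions of all 6 TFs had medians of 109.5 PtrARF5a reads and 82.5 PtrBLH reads. The part of the pile-up in the distances was not tested. Among the 222 regions, the 74 with the largest PtrBLH −log10 q (7.66 to 16) had a median distance of 32.5 bp, the 74 below them 59.5 bp and the lowest 74 had 49.5 bp.

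**Figure D4:**
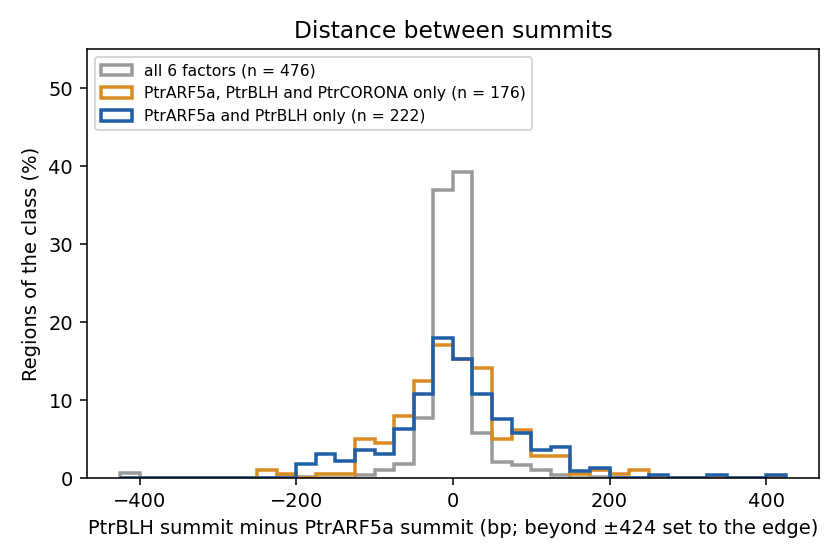
Position of the PtrBLH summit relative to the PtrARF5a summit (x axis, bp) as the share of regions (y axis, %) in bins of 25 bp, for the 222 regions, those with PtrCORONA as well (176) and those of all 6 TFs (476). All 3 centre near 0, and the regions of all 6 TFs are the narrowest, with a median distance of 11 bp against 47 bp.

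The regions were short, with a median of 382.5 bp (284 to 1009 bp), against 493 bp where PtrCORONA was also called and 583.5 bp for all 6 TFs. The smallest width of a list, which matched the read extension seen in the steps of the background, was 167 bp for PtrARF5a and 284 bp for PtrBLH. At that smallest width stood 50 of the PtrBLH peaks (22.5%, against 8.5% of the whole list), but 5 of the PtrARF5a peaks (2.25%, against 11.9%). The peaks overlapped over most of their length, with a median of 94.9% of the shorter one. PtrARF5a lay wholly inside PtrBLH in 50 regions, PtrBLH inside PtrARF5a in 33, and in 139 each reached beyond the other. A single peak of each TF was the rule (218 regions), and 4 regions on chromosomes 6, 10 and 11 had more than 1 PtrARF5a peak under 1 PtrBLH peak.

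At the edge of the rule, the smallest overlaps between the PtrBLH peak and the strongest PtrARF5a peak of a region were 68 bp at Chr10:7255819-7256388, 84 bp at Chr10:20138805-20139171 and 94 bp at Chr6:20095010-20096018. A weaker second PtrARF5a peak, Chr11:14353766-14353932, overlapped the PtrBLH peak of its region by 20 bp, while the strongest one there lay wholly inside the PtrBLH peak. In the region with 68 bp, both peaks rested on 4 reads (folds 4.69 and 4.68). Just outside were pairs of neighbouring peaks on chromosomes 8, 4 and 11 that missed each other by 45, 249 and 314 bp. Their PtrBLH folds were 5.15, 6.88 and 7.01. The weakest PtrCORONA peaks that kept a region out had −log10 q values of 2.75 (Chr1:28556779-28557350), 3.85 and 3.94. The weakest PtrBLH peaks that let a region in had 2.08 (Chr9:8749398-8749693), 2.68 and 2.93.

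The nearest peak of another TF was at a median of 90168.5 bp, and 6 regions (2.70%) had one within 2 kb. PtrCORONA was the nearest in 5 of these 6, at 798 bp (Chr10:14351770-14352243), 1004 bp (Chr4:16327469-16327904), 1702 bp, 1764 bp and 1941 bp. Counting any other region, PtrARF5a-only ones included, 16.7% of the 222 regions had a neighbour within 2 kb. This compares with 18.7% of the PtrARF5a-only regions and 11.1% of those of all 6 TFs. It was 22.5% for PtrARF5a and PtrCORONA only, 21.6% for PtrARF5a, PtrBLH and PtrCORONA only, and 42.9% for PtrBLH only. None of the 222 regions had a region of all 6 TFs within 5 kb. Distances to those regions and to the nearest peak of another TF were not compared with other classes. They are therefore not shown to be particular to the regions described here. A peak called for PtrARF5a only lay within 2 kb of 30 regions. From 1 of the 222 regions to the next the median was 950938 bp, and 2 pairs stood within 10 kb, on chromosome 14 (575 bp apart) and chromosome 16 (3126 bp apart).

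Beside the 271 regions of PtrARF5a and PtrCORONA only, the regions of PtrARF5a and PtrBLH only looked much alike in PtrARF5a. The median PtrARF5a fold was 8.07 there and 8.03 here, the median −log10 q 11.4 and 12.2, and the median pile-up 15 and 16 reads. The second TF was weak in either class, with a median PtrCORONA fold of 5.86 and 12 reads there and a median PtrBLH fold of 5.84 and 11 reads here. Where both PtrBLH and PtrCORONA were called beside PtrARF5a, all 3 were stronger, with median folds of 12.7 for PtrARF5a, 7.52 for PtrBLH and 6.90 for PtrCORONA. The classes were defined by the calls, so these differences have no test, and folds of different lists are not on one scale. PtrBLH in its 42 regions without any other TF had a median fold of 5.35 and 11 reads. These medians cover a mixed class. The lower and upper quartiles of its PtrBLH fold were 1.79 and 6.31, against 5.24 and 6.84 in the regions of PtrARF5a and PtrBLH only. Some of the low folds came with large pile-ups, such as 318 reads at a fold of 1.78 at Chr13:6407159-6407805.

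A missing peak is not a missing signal. The lowest −log10 p of each list was converted to a pile-up at a background equal to 2 input reads per window. It corresponds to at least 8 reads for PtrBLH, 9 for PtrARF5a and PtrCORONA, and 7 for both zinc finger proteins. The lowest −log10 q was 4.26 in the PtrC2H2ZF1 list and 3.71 in the PtrC2H2ZF2 list. It was 2.02 for PtrARF5a and 2.08 for PtrBLH and PtrCORONA. The 7 reads of the zinc finger lists may therefore exceed what a call needed. The median PtrBLH pile-up of 11, scaled by depth alone, would be 16.3 reads in the PtrCORONA library, 22.4 in that of PtrNAC127, and 4.86 and 4.38 in those of PtrC2H2ZF1 and PtrC2H2ZF2. The coverage of these libraries at the regions was not measured here, so the part of depth in the absence of a PtrCORONA, PtrNAC127 or zinc finger peak was not tested. Leaving the PtrC2H2ZF1 and PtrC2H2ZF2 lists out of the rule changed the number of regions from 222 to 225.

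The input was low at the regions. The median background equalled 1.00 input read per window for PtrARF5a and 2 for PtrBLH, whose window is wider. The medians were the same where PtrARF5a (1.00) or PtrBLH (2) was called without any other TF. Some of the PtrBLH-only regions nevertheless had a high background, seen as a large pile-up at a low fold. At Chr13:6402024-6402490 there were 289 PtrBLH reads at a fold of 1.52. In the regions of all 6 TFs the median background equalled 7 input reads per window for both. Such a value can come from a 1 kb window scaled to the smaller width, so it is not always a count of reads in the window.

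By chromosome, the number of regions ran from 2 on chromosome 19 to 23 on chromosome 2, followed by 21 on chromosome 1 and 19 on chromosome 10. It followed the number of regions with a PtrARF5a peak (Spearman's rho 0.919, Pearson's r 0.906 over the 19 chromosomes, which differ in length). As a share of the regions with a PtrBLH peak, it was 22.9% in all. The highest shares were 34.3% on chromosome 7 (exact 95% binomial interval 19.1 to 52.2%) and 31.4% on chromosome 8, and the lowest were 9.52% on chromosome 19 (1.17 to 30.4%) and 14.5% on chromosome 13. The interval of every chromosome included 22.9%. The 2 regions on chromosome 19 included the strongest PtrARF5a peak of all.

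**Figure D5:**
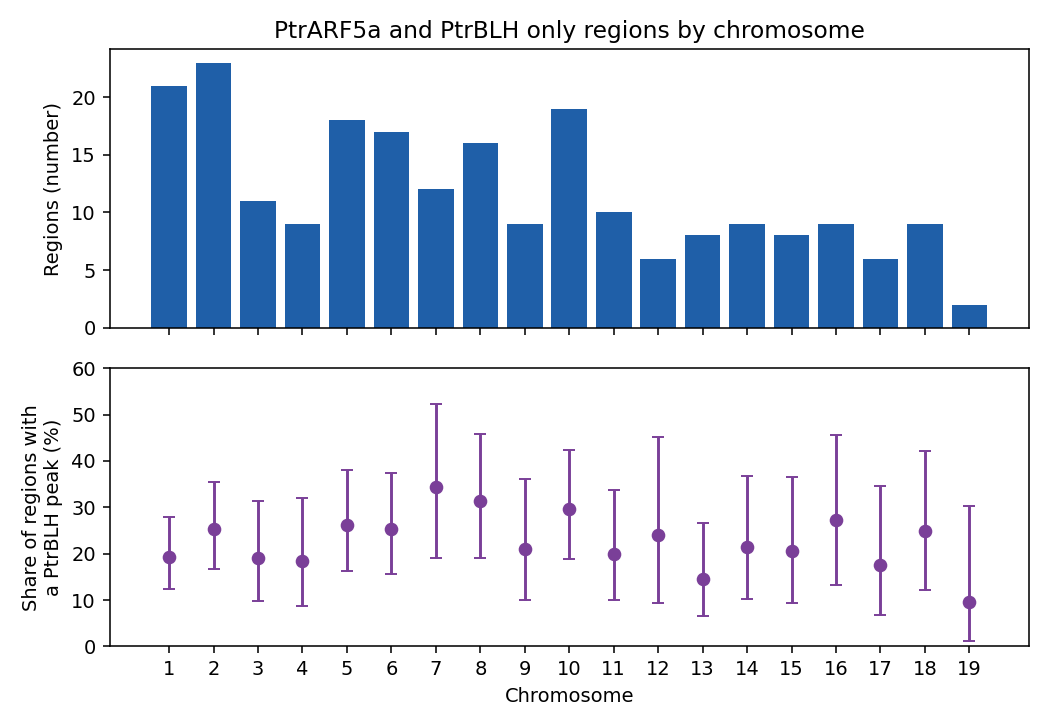
Number of regions of PtrARF5a and PtrBLH only per chromosome (top) and their share of the regions with a PtrBLH peak (bottom, %, with exact 95% binomial intervals). Chromosome 2 has the most (23) and chromosome 19 the fewest (2), and the intervals of all 19 chromosomes include the overall 22.9%.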

How the data were processed

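Peak lists of 6 ChIP-seq libraries were used, 1 per TF, and the input served as the control of the calls. After trimming (Trimmomatic), the authors aligned reads to the genome of Populus tremula × alba using Bowtie2, dropped duplicates and alignments of MAPQ under 30 using SAMtools, and called peaks of each library against the input using MACS2 (2.1.0 according to the submitters' notes on processing). The deposited lists give a whole-number score, the fold enrichment (a ratio to the input background) and the −log10 of p and q, all at the summit. The score is −log10 q scaled up and cut to a whole number in nearly all peaks, and was not used.

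Peaks were merged into regions at an overlap of at least 1 bp. Where a region held several peaks of a list, the one with the largest −log10 q stood for it. Positions are given on the build of the lists, 1-based. The pile-up k and background λ were solved from fold = (k + 1)/(λ + 1) and the Poisson p, and a whole k was accepted when −log10 p matched within 0.002 plus 0.0001 of its value. For PtrNAC127, whose ChIP reads had been scaled down, 2.50% matched by this means, and its depth came from the step of the scaled pile-ups at whole input counts (72.0% of its peaks). For the other lists, all peaks matched. Input reads per window are the background divided by the depth. They were whole numbers for 53.9% of all PtrARF5a peaks and 73.6% of all PtrBLH peaks. With 1 kb windows scaled to the smallest peak width also allowed, this was 79.7% and 89.4%. Merging and solving were tested on simulated data.

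With 1 library per TF and members set by the calls, no test between groups was run. The members, the naming rule (leading ranks, extremes and edges of the rule) and the comparisons were chosen with earlier results of these data known, and the high-input region on chromosome 13, the lowest −log10 q values and the quintiles were added after the data were seen. Alternatives were other overlaps, thresholds, gaps, distances and sets of lists. No genome or annotation was used, so the planned motif search was not run, and genes, sequence and motifs at the regions were not analysed here. Computation used scipy 1.17.1 with numpy 2.4.6 and pandas 2.3.3 under Python 3.11.15, and plots matplotlib 3.10.9.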

Additional observations from a re-analysis of the deposited data

How the results depend on the processing

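The regions depend on the call threshold most of all. Keeping only peaks with a −log10 q of at least 5 in every list gave 147 regions with a median PtrARF5a fold of 8.88 and PtrBLH fold of 6.58, 3 of them with another TF within 2 kb. At 10 or more there were 54 regions (12.3 and 8.76, summits 32.5 bp apart, 0 near another TF), of which 25 had the coordinates of one of the 222. Applied to the 4 excluded lists alone, the limit of 10 gave 326 regions, the 222 among them, a number just inside 1.5 times. Their PtrARF5a median was 9.03, and 3 were near another TF. The absence of the other TFs thus depends on the threshold of their lists. Without the PtrCORONA list in the rule (chosen after seeing the data, as was leaving out the zinc finger lists) there were 398 regions (9.65 and 6.33), with 1 near another TF. Within 1 kb and 5 kb, 1 and 13 of the 222 regions had another TF. The other 26 of 43 values stayed within 1.5 times (numbers) or within the 95% binomial interval of the median. No paired analysis was possible because each TF has 1 library and no replicate number. Depth limits each single value, since the upper bound of a pile-up's Poisson interval was at the median 3.58 times the lower one for PtrBLH and 2.84 times for PtrARF5a.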

Other observations

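On unplaced scaffolds, 4 of 129 merged regions also held peaks of PtrARF5a and PtrBLH only. The depths read from the lists do not order the lists by length. PtrNAC127 had the deepest library, at 1.07 of the input reads, and 681 peaks, while PtrARF5a had 0.879 of the input reads and 5397 peaks.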
